A study of Homo sapiens with 3 samples.

Results

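The Sestrin genes SESN1, SESN2 and SESN3 and the REDD genes DDIT4 and DDIT4L encode proteins that restrain mTORC1, the kinase complex that couples amino acid supply to protein synthesis. They were read by every probe set whose platform gene symbol is exactly one of those 5 names, which gave 12 of the 54675 probe sets on the array: 7 for SESN3, 2 for SESN2 and 1 each for SESN1, DDIT4 and DDIT4L. The cells were khES3, an established line of undifferentiated human embryonic stem cells, grown in stem cell medium and then held for 5 hours in leucine-deprived, lysine-deprived or complete medium. Human cells make neither of these amino acids. RNA of each of the 3 media was hybridised to 1 Affymetrix array, so no difference below has a replicate check or a p-value, and both deprivations are set against the same complete-medium array.

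Cytosolic Sestrins bind GATOR2, a complex that relieves the GATOR1 brake on the Rag GTPases. Leucine binding to Sestrin2 frees GATOR2 and lets mTORC1 be activated at the lysosome. REDD1, the product of DDIT4, and its paralog REDD2, the product of DDIT4L, restrain mTORC1 by another route, through the TSC complex and the small GTPase RHEB. SESN2 and DDIT4 are known stress genes, switched on by ATF4 when amino acids are short. DDIT4 is also known as a target of hypoxia and glucocorticoids, SESN1 and SESN2 as p53 targets, and SESN3 as a FOXO target.

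Values are MAS5 signals on a linear scale. Differences are given as log2 of the ratio of 2 signals, so that 1 stands for 2-fold. Signals under the 40th percentile of an array (56.7, 62.4 and 54.6 on the leucine-deprived, lysine-deprived and complete-medium arrays) were raised to it, here called the floor. Probe sets were kept where their mean log2 signal over the 3 arrays reached the median, and a gene was represented by its brightest kept probe set, which gave 12961 genes. All 5 genes had such a probe set. Of the 12 probe sets 7 were kept and the other 5, all of SESN3, were too dim. In place of a replicate error, the SD among kept probe sets of the same gene was computed over 5981 genes. For differences over complete medium it was 0.49 (leucine removal) and 0.57 (lysine removal), and for leucine-deprived against lysine-deprived medium it was 0.58. Among the brighter probe sets, those at or above the median level of all genes, it was 0.21, 0.30 and 0.29 in the same order. The spread between cultures is not part of it. Fewer cells of a type and less RNA per cell cannot be told apart in such bulk RNA.

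Markers of the labelled cell type were present. Of 15 measured stem cell markers all were above the floor on the leucine-deprived and complete-medium arrays and 14 on the lysine-deprived array, where TERT was below it and GDF3 was 2-fold lower than in complete medium (-1.45). Of these markers 5 had several kept probe sets. On another probe set 2 more were at least 2-fold lower and 0 higher after lysine removal. NANOG had signals of 17274, 15731 and 15765 and SOX2 of 20742, 21643 and 18755 on the leucine-deprived, lysine-deprived and complete-medium arrays. Of 12 fibroblast and feeder markers 8 had a kept probe set, with summed signals of 27941, 31824 and 30363 in the same order, in which COL1A1, THY1 and COL1A2 held the most. TWIST1 alone of these was 2-fold higher after leucine removal (1.03, and 0.08 after lysine removal), and DCN was below the floor on the leucine-deprived array. On another probe set 1 fibroblast or feeder marker was higher and 0 lower after lysine removal. Of 7 trophoblast markers 2 were kept (sums 305, 328 and 221), of which HAND1 differed by 1.08 and 0.89. Of 14 germ layer markers 9 were kept. Their sums of 6467, 7349 and 6540 were mostly those of NES and OTX2, but dimmer members differed between the arrays. After lysine removal 3 were at least 2-fold higher and 0 lower (median 0.65), namely TBXT (1.41), MESP1 (at least 1.34) and BMP4 (1.27), which mark or induce mesoderm. After leucine removal 0 were higher and 1 lower (median -0.02), CER1, by at least 1.57. In leucine-deprived over lysine-deprived medium 0 were higher and 3 lower (median -0.58), namely TBXT, CER1 and SOX17. Shares past 2-fold among all 12961 genes were 3.8% upward and 2.58% downward after leucine removal, and 6.04% and 3.42% after lysine removal. Between the deprivations they were 3.59% and 4.85%. Whether counts out of 9 markers exceed these shares was not tested. The signal at the 3′ end of ACTB was 7.55, 11.2 and 5.44 times that at its 5′ end, a measure of RNA quality and labelling that moved with the groups. For GAPDH the ratio was 1.23, 1.25 and 1.08. The part of these markers and ratios in the differences below was not tested.

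Removal of either amino acid went with high DDIT4 and SESN2 signals and with little or no such difference in the other 3 genes. DDIT4 was more than 7-fold higher on both deprivation arrays and SESN2 between 2.32- and 4.19-fold higher, depending on the probe set. SESN1, SESN3 and DDIT4L stayed under 2-fold in both comparisons. After leucine removal 2 of the 5 passed 2-fold upward and 0 downward. Over all 12961 genes, bounds of dim ones included, 3.8% did so upward and 2.58% downward. The same 2 of 5 were higher and 0 lower on the lysine-deprived array, against 6.04% and 3.42% of all genes. With each array centred on its median, SESN2 was just under 2-fold after lysine removal (0.97), and 1 of 5 passed. The split over all genes depended on the scaling: 493 were higher and 335 lower after leucine removal as deposited but 341 and 466 when centred, and after lysine removal 783 and 443 as deposited but 481 and 858 when centred. Of the 5 genes DDIT4L alone lay below the median level of all genes. Among the 6481 genes at or above that level, 0.818% were 2-fold higher and 0.0617% lower after leucine removal, and 1.39% higher and 0.432% lower after lysine removal. The 5 genes were chosen with results of these arrays known, so their share beside these is a description.

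**Figure D1:**
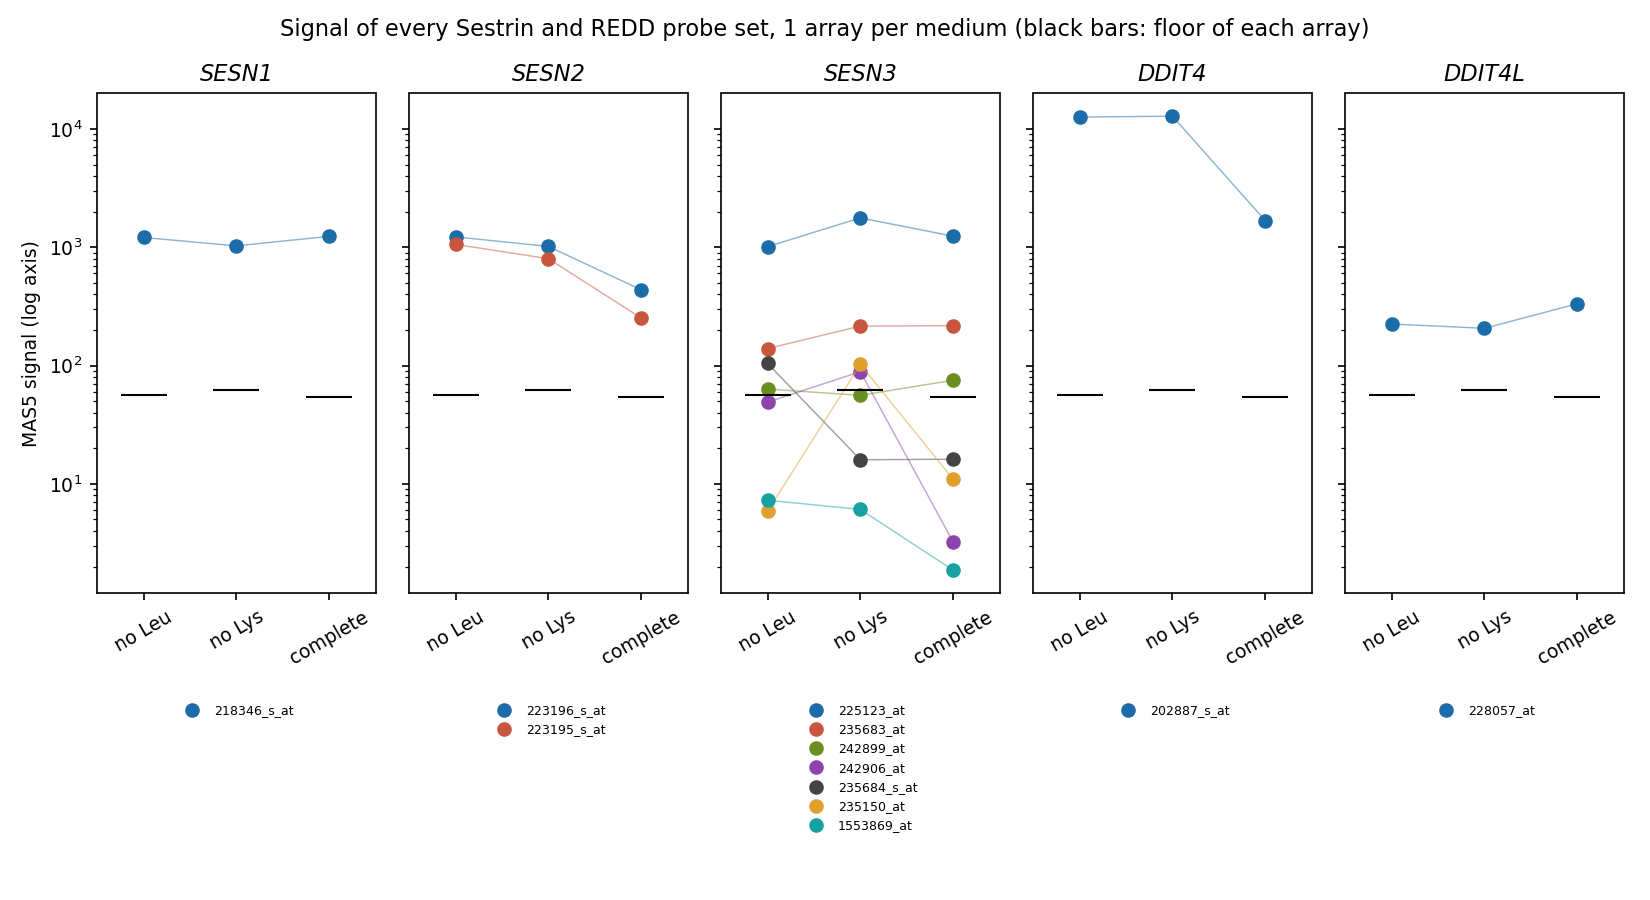
MAS5 signal (log axis) of each of the 12 probe sets on the leucine-deprived (no Leu), lysine-deprived (no Lys) and complete-medium arrays, 1 panel per gene, with 1 array per medium and a black bar at the floor of each array. DDIT4 and both SESN2 probe sets were lower in complete medium than on either deprivation array, whereas 5 of the 7 SESN3 probe sets were above the floor on 2 arrays at most.

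DDIT4 encodes REDD1, a short-lived protein that is thought to act on the TSC complex. Its probe set 202887_s_at had signals of 12609 (leucine-deprived) and 12820 (lysine-deprived), against 1680 in complete medium. The deprivation arrays lay far above complete medium and close to each other. The difference over complete medium was 2.91 (7.50-fold) after leucine removal and 2.93 (7.63-fold) after lysine removal, which is 5.98 and 5.17 times the SD between probe sets of a gene. Between the leucine-deprived and lysine-deprived arrays DDIT4 differed by only -0.02. Ranked by difference, it was the 5th highest of 12961 genes after leucine removal and the 6th highest after lysine removal. Since 1 probe set reads the gene, no second one checks these values.

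SESN2 encodes Sestrin2, a leucine-binding Sestrin. Its brighter probe set 223196_s_at had signals of 1224 and 1015 on the leucine-deprived and lysine-deprived arrays, against 437 in complete medium. Its other probe set 223195_s_at had 1056 and 801, against 252. Both put complete medium lowest and leucine-deprived medium highest. Leucine removal gave differences of 1.49 (2.80-fold) and 2.07 (4.19-fold) on them, and lysine removal 1.22 (2.32-fold) and 1.67 (3.17-fold). The dimmer probe set gave the larger difference after each removal. Leucine-deprived over lysine-deprived gave 0.27 and 0.40, both smaller than the SD of 0.58. The SD of 0.29 among brighter probe sets lay between them, and the probe set at 0.40 was just too dim to be one of these. By its brighter probe set SESN2 ranked 142nd of 12961 genes after leucine removal and 517th after lysine removal, and 17th and 44th among the 6481 brighter genes.

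The promoters of these genes show what the annotated starts of the 2 higher genes and of a paralog that was not higher look like. RefSeq's promoter table (GRCh38.p14) matched all 5 genes with 7 annotated starts, 3 of them in SESN1. The 250 bases before the start are printed 5′ to 3′ on the gene's strand for DDIT4 (chr10:72273674-72273923, plus strand), SESN2 (chr1:28259268-28259517, plus strand) and DDIT4L (chr4:100190469-100190718, minus strand). Capitals mark matches to the letters searched, which were ACGTG, the core of a hypoxia response element, in DDIT4, ATTGG, which is CCAAT read on the other strand, in DDIT4 and SESN2, and TATAAA in DDIT4L.
DDIT4: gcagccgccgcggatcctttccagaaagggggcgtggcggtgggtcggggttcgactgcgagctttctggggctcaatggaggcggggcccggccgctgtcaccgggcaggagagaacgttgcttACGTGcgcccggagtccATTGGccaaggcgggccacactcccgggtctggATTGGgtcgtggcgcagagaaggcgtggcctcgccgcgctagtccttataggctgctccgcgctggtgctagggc
SESN2: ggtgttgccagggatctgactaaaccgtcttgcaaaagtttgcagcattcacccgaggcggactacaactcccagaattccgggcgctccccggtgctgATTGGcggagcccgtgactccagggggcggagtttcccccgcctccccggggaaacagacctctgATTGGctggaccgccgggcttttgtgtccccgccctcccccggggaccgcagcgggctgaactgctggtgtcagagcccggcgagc
DDIT4L: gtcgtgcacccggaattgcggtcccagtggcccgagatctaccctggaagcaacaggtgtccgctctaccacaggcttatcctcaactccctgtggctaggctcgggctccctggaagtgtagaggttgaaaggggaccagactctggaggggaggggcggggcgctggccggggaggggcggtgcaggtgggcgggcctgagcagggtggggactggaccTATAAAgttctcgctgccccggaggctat

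In DDIT4, counting back from -1 at the base before the start, the hypoxia core ACGTG lay at -125 to -121. CCAAT boxes, the known binding letters of NF-Y, covered positions -108 to -104 and -75 to -71. SESN2 also held 2 CCAAT boxes, at -151 to -147 and -86 to -82. DDIT4L held no CCAAT box and had the TATA box at -29 to -24. Of the SESN1 starts the first held no match, and the other 2 held 1 CCAAT box each. The SESN3 window held none, and 42.8% of its bases were G or C, against 68.8% in DDIT4, 65.6% in SESN2, 65.2% in DDIT4L and a median of 58% over all 35116 windows. CCAAT was found on either strand in 32.01% of all windows, ACGTG in 18.5% and TATAAA in 10.7%. The C/EBP-ATF composite TGATGNAA (3.14% of all windows), the E-box CACGTG (6.35%, which contains ACGTG), the cyclic AMP element core TGACGT (7.10%) and the forkhead core GTAAACA (2.98%) were in none of the 7 windows. CCAAT and TATAAA were added to the search after the sequences had been seen. A match is a match of letters only, and its absence says only that those letters are not in this window.

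**Figure D2:**
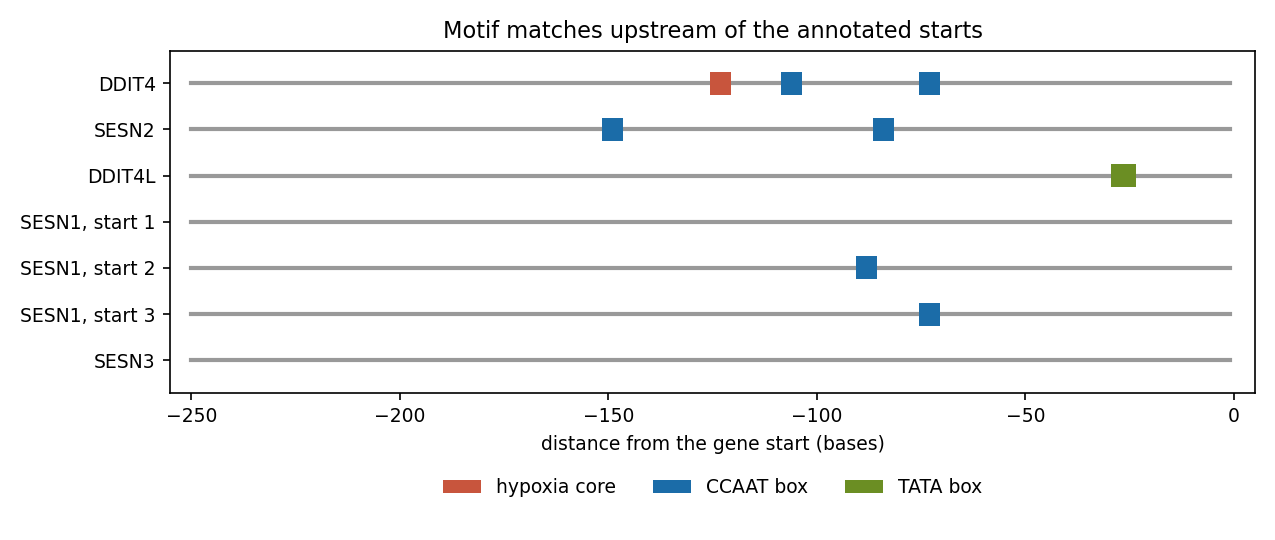
Positions of the motif matches in the 250 bases before each annotated start (x axis, distance from the start in bases), with 1 line per start. DDIT4 and SESN2 each held 2 CCAAT boxes and SESN1 starts 2 and 3 held 1 each. The TATA box was in DDIT4L, and the hypoxia core was in DDIT4.

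SESN1 encodes Sestrin1, a p53-inducible Sestrin. Its probe set 218346_s_at had signals of 1209 and 1027 on the leucine-deprived and lysine-deprived arrays, against 1236 in complete medium. The 3 arrays lay close together, with differences of -0.03 after leucine removal and -0.27 after lysine removal, both within the SD between probe sets and that among brighter ones. SESN2 stood above SESN1 by 1.52 in its leucine difference and by 1.48 in its lysine difference. The Sestrins thus differed from each other on these arrays.

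SESN3 encodes Sestrin3, known as a FOXO-induced Sestrin. Its brightest probe set 225123_at had a signal of 1012 in leucine-deprived and 1771 in lysine-deprived medium, against 1240 in complete medium. Here the lysine-deprived array was highest and the leucine-deprived array lowest, with differences over complete medium of -0.29 after leucine removal and 0.51 after lysine removal. The second kept probe set 235683_at had 139 and 215 on the leucine-deprived and lysine-deprived arrays, against 217 in complete medium, which is -0.64 and -0.01. Both put leucine-deprived medium lowest, but they disagreed on lysine removal, where each value lay within the SD of 0.57; the 0.51 of the brighter one exceeded the 0.30 among brighter probe sets. In leucine-deprived over lysine-deprived medium they gave -0.81 and -0.63, each larger than the SD of 0.58. A dim probe set described below, 235684_s_at, lay opposite to them (at least 0.74). By the first of these SESN3 was the 44th lowest of the 6481 brighter genes, of which 0.262% were at least 2-fold lower in that comparison and 0.108% at least 2-fold higher. No gene of the 5 passed 2-fold between leucine-deprived and lysine-deprived medium, against 3.59% higher and 4.85% lower over all genes (465 and 628 genes, or 627 and 511 with median centring).

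The other 5 SESN3 probe sets add little to this. Of these, 242899_at had signals of 63.2 and 56.0 on the leucine-deprived and lysine-deprived arrays and 75.1 in complete medium, at or near the floor throughout. For 3 further ones only 1 array was above the floor. For 235684_s_at it was the leucine-deprived array (104, with 16.0 on the lysine-deprived array, against 16.1 in complete medium), at least 1.91-fold higher than complete and 1.67-fold higher than lysine-deprived medium. For 235150_at it was the lysine-deprived array (102, against 10.9), at least 1.87-fold higher, and for 242906_at again the lysine-deprived array (88.8, against 3.22), at least 1.63-fold higher. 1553869_at was below the floor on all 3 arrays. Both bounds of 235684_s_at thus lay opposite to the kept probe sets. Those of 235150_at and 242906_at in leucine-deprived over lysine-deprived medium (-0.85 and -0.65 or lower) lay on the same side as them. Which transcripts the dim probe sets read is not given in the sources used here.

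**Figure D3:**
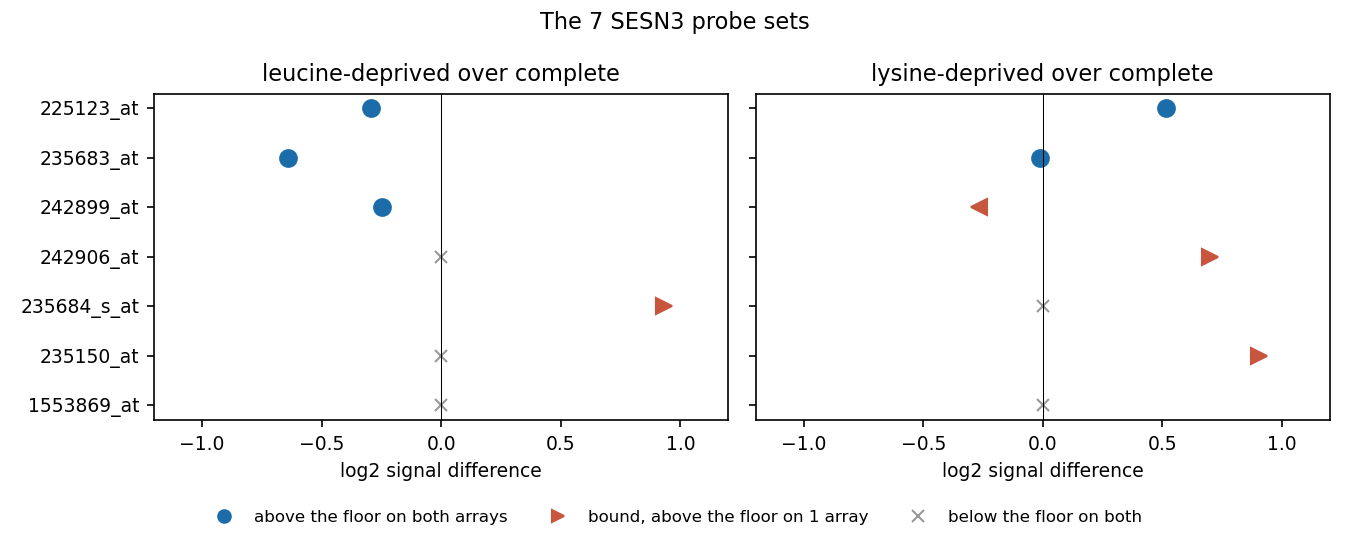
Log2 signal difference of the 7 SESN3 probe sets over complete medium, leucine-deprived on the left and lysine-deprived on the right. Circles are values above the floor on both arrays, triangles are bounds and crosses mark probe sets below the floor on both. The brightest probe set lay at -0.29 after leucine removal and at 0.51 after lysine removal.

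DDIT4L encodes REDD2, which is known from muscle as an mTORC1 inhibitor. Its probe set 228057_at had signals of 224 and 206 on the leucine-deprived and lysine-deprived arrays, against 333 in complete medium, the opposite order to its paralog DDIT4. The differences were -0.57 after leucine removal and -0.69 after lysine removal, 1.17 and 1.22 times the SD between probe sets. DDIT4 stood above DDIT4L by 3.48 in its leucine difference and by 3.62 in its lysine difference. DDIT4L lay at percentile 8.02 of all genes after leucine removal and at 7.93 after lysine removal.

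**Figure D4:**
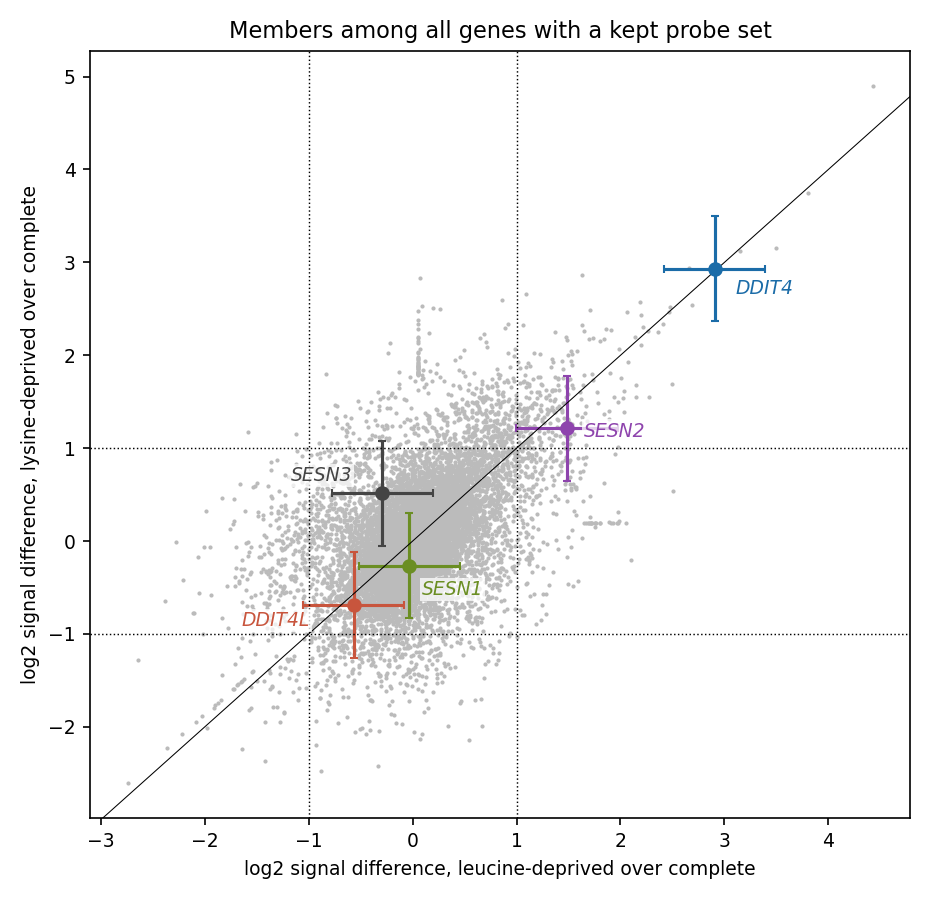
Log2 signal difference over complete medium of 12961 genes (grey), leucine-deprived on the x axis and lysine-deprived on the y axis. Coloured points are the 5 genes with the SD between probe sets of a gene as bars, dotted lines mark 2-fold, and both axes share the complete-medium array. DDIT4 (2.91, 2.93) lay close to the diagonal at the upper end, SESN2 (1.49, 1.22) past both dotted lines, and SESN1, SESN3 and DDIT4L inside them.

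The genes most like each of these 5 were taken as the 3 nearest in this plane, among 6481 brighter genes. Over 3 arrays such likeness rests on 2 differences that share an array. The nearest to DDIT4 were STC2, a secreted glycoprotein gene, at a distance of 0.25 (differences of 2.66 and 2.94), DDIT3, which encodes CHOP, at 0.31 (3.15 and 3.12), and CHAC1, a glutathione-degrading enzyme gene, at 0.44 (2.69 and 2.54). Those nearest to SESN2 were KCNT2, a potassium channel gene, at 0.07 (1.54 and 1.26), NCOA7 at 0.14 (1.39 and 1.32) and ASS1, the argininosuccinate synthase gene, at 0.17 (1.33 and 1.27). EFEMP1, SEC24D and SDCCAG8 lay within 0.05 of SESN3, ANXA7, TIMELESS and CHTF8 within 0.01 of SESN1, and GTF2E2, FEN1 and POLR2F within 0.03 of DDIT4L, in parts of the plane that hold many genes.

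Among the transcription factors known to act on Sestrin or REDD genes, DDIT3 and CEBPB differed most. Of 14 measured, 2 were at least 2-fold higher and 0 lower after leucine removal, with a median of 0.40, and 5 higher and 0 lower after lysine removal, with a median of 0.27. The median of all genes was 0.01 and 0.00. For comparison, 3.8% of the 12961 genes passed 2-fold upward after leucine removal and 2.58% downward. After lysine removal these shares were 6.04% and 3.42%. On another probe set 1 more regulator was higher after leucine removal and 2 more after lysine removal, with 0 lower. DDIT3 had signals of 2830 and 2776 on the leucine-deprived and lysine-deprived arrays, against 319 in complete medium. It is also counted in the list of ATF4 targets below. CEBPB, a partner of ATF4, differed by 1.98 and 2.07, and ATF4 itself by 0.62 and 0.80. NUPR1, a stress-induced chromatin protein gene, differed by 0.66 after leucine and 1.37 after lysine removal. TP73, a p53 relative, was below the floor in complete medium and at least 0.52 and 1.34 higher. FOXO3 differed by 0.89 and 1.06 and its 4 probe sets ran between 0.69 and 0.95 after leucine removal. HIF1A (0.09 and 0.19) and NR3C1, the glucocorticoid receptor gene (-0.29 and -0.11, highest probe set 0.85 and 1.14), differed little on their brightest probe sets. Among 7 genes of eIF2 alpha kinases and phosphatase subunits, the inputs and brakes of ATF4, 0 passed 2-fold in either comparison (medians 0.07 and 0.27). PPP1R15A differed by 0.38 and 0.79 (other probe set 1.86 and 0.06) and PPP1R15B by 0.39 and 0.57.

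Among the programmes to which the 5 genes are known to belong, that of ATF4 had the highest medians. The FOXO list came next, and the HIF, glucocorticoid and p53 lists had medians near that of all genes. Of 43 measured ATF4 targets other than these genes, 24 were at least 2-fold higher and 0 lower after leucine removal (median 1.15). After lysine removal 25 were higher and 0 lower (median 1.12). Over all genes 3.8% were higher and 2.58% lower after leucine removal, and 6.04% and 3.42% after lysine removal. Among these targets INHBE (4.42 and 4.90), TRIB3 (3.80 and 3.75, but 1.75 and 0.55 on its other probe set), DDIT3 and STC2 had the largest mean differences. After leucine removal alone CHAC1 (2.69) lay above STC2 (2.66). Of the genes not past 2-fold, 5 after leucine and 3 after lysine removal passed it upward on another probe set. DDIT4 lay above the list median in both comparisons. SESN2 lay slightly above it by its brighter probe set (1.49 and 1.22) and further above it by the other (2.07 and 1.67). HIF targets had medians of -0.02 and -0.09 over 23 genes, with 14 and 15 of them below 0. VEGFA alone passed 2-fold (2.19 and 2.57, with another probe set at 0.04 and -0.17), and it is in the ATF4 list too. Of the other HIF targets, 1 was higher after leucine and 3 were lower after lysine removal on another probe set. ADM, the adrenomedullin gene, differed by 0.66 and 0.71. Glucocorticoid targets had medians of -0.09 and -0.03 over 9 genes. TSC22D3 alone passed 2-fold (2.46 and 2.47, other probe set 1.15 and -0.05), and MT2A, a metallothionein gene, differed by 0.65 and 0.86.

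The p53 targets had medians of 0.05 and -0.10 over 21 genes. After leucine removal 0 were 2-fold higher or lower, and after lysine removal 0 were higher and 1, TP53INP1 (-1.07), lower. Over all genes 3.8% were higher and 2.58% lower after leucine removal, and 6.04% and 3.42% after lysine removal. Beside these shares, counts this small do not set the p53 list apart. Of the targets not past 2-fold, 1 was higher after leucine and 2 were lower after lysine removal on another probe set. PMAIP1, which encodes the death factor NOXA, differed by 0.92 and 0.78. SESN1 lay within the range of this list. FOXO targets had medians of 0.46 and 0.61 over 14 genes, with 11 and 12 above 0. In each comparison 1 passed 2-fold, TXNIP after leucine (1.26, and 0.98 after lysine removal) and CITED2 after lysine removal (1.11, and 0.31 after leucine removal). A count of 1 does not set this list apart either, though its medians lay above the 0.01 and 0.00 of all genes. That shift was not tested. Of the FOXO targets not past 2-fold, 2 were higher and 3 lower after leucine removal on another probe set. After lysine removal it was 2 higher and 2 lower. By its brightest probe set SESN3 lay below the median of this list after leucine removal and just under it after lysine removal. Its other kept probe set (-0.64 and -0.01) lay well below the median after each removal.

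Few genes of the machinery on which Sestrins and REDD proteins act passed 2-fold at the RNA level. Of 48 measured genes for GATOR complexes, amino acid sensors, Rag GTPases and Ragulator, TSC and RHEB, mTOR complexes and AMPK, 1 was at least 2-fold higher and 0 lower after leucine removal (median 0.05), and 1 higher and 3 lower after lysine removal (median -0.06). Beside 3.8% higher and 2.58% lower of all genes after leucine removal, and 6.04% and 3.42% after lysine removal, counts this small do not set the list apart. On another of their probe sets 2 more were lower after leucine removal, and 1 more was higher and 4 lower after lysine removal, these 4 all of AMPK. The higher one was WDR24, a GATOR2 subunit gene, read by 1 probe set with signals of 152 and 251 on the leucine-deprived and lysine-deprived arrays and 18.7, below the floor, in complete medium. The other GATOR2 genes lay between -0.26 and 0.21 after leucine removal and between -0.52 and 0.08 after lysine removal. The 3 lower after lysine removal were RRAGB (-1.28), which encodes a Rag GTPase, ITFG2 (-1.07, highest probe set 0.16) of KICSTOR and FNIP1 (-1.03, highest probe set 0.66), a folliculin partner. RRAGB was read by 1 probe set, whose signal of 76.2 on the lysine-deprived array was near the floor of 62.4. After leucine removal RRAGB and FNIP1 were at 0.83 and 0.17, and ITFG2 at -0.75 (lowest probe set -1.34). KPTN, another KICSTOR gene, differed by -0.85 and -0.30.

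By group, the medians after leucine and lysine removal were 0.00 and -0.25 for GATOR2 (5 genes), -0.06 and -0.20 for GATOR1 and KICSTOR (6), 0.24 and 0.10 for the other amino acid sensors (5) and 0.02 and -0.30 for Rag, Ragulator and folliculin genes (11). They were 0.02 and -0.11 for TSC and RHEB (5), -0.25 and 0.03 for mTOR complexes (9) and 0.44 and 0.03 for AMPK (7). CASTOR1, the arginine sensor gene, differed by 0.66 and -0.02, and LARS1, the leucyl-tRNA synthetase gene, by 0.35 and 0.16. RHEB and its relative RHEBL1 differed by 0.06 and 0.02 after leucine and by 0.32 and 0.64 (1.21 on another RHEBL1 probe set) after lysine removal. RICTOR, of mTORC2, differed by 0.45 and 0.79 (lowest probe set -0.83 and -0.11), and DEPTOR, an mTOR inhibitor gene, by -0.32 and -0.35. Of AMPK, PRKAA2 differed by 0.74 and -0.09 (lowest probe set -0.11 and -1.07) and PRKAB1 by 0.48 and 0.37 (other probe set -0.16 and -0.43).

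Genes of mTORC1 substrates had medians of 0.25 and 0.19 over 11 genes. TFEB, a lysosomal gene regulator, was the one at least 2-fold higher (1.86 and 2.28). Its 1 probe set had signals of 262 and 351 on the leucine-deprived and lysine-deprived arrays. In complete medium the signal was 72.1, not far above the floor of 54.6. ULK1, the autophagy kinase gene, differed by 0.25 after leucine removal and was 2-fold lower after lysine removal (-1.15). On another probe set 1 more substrate gene was lower and 0 higher after lysine removal. Redox partners of Sestrins had medians of -0.01 and -0.11 over 10 genes, with 0 past 2-fold in either comparison; NFE2L2, which encodes NRF2, differed by 0.68 and 0.85 (other probe set 1.35 and 0.61), and RBX1 by -0.27 and -0.52. REDD1 partners and turnover genes had medians of -0.08 and -0.03 over 12 genes. TXNIP, whose product binds REDD1, was the one past 2-fold, after leucine removal, and YWHAH, a 14-3-3 gene, differed by -0.45 and -0.51. Over all genes 3.8% were higher and 2.58% lower after leucine removal, and 6.04% and 3.42% after lysine removal. Counts of 0 or 1 do not set these lists apart. On another probe set 2 redox genes were higher in each comparison. For REDD1 partners it was 1 higher after leucine removal, and 2 higher and 1 lower after lysine removal.

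**Figure D5:**
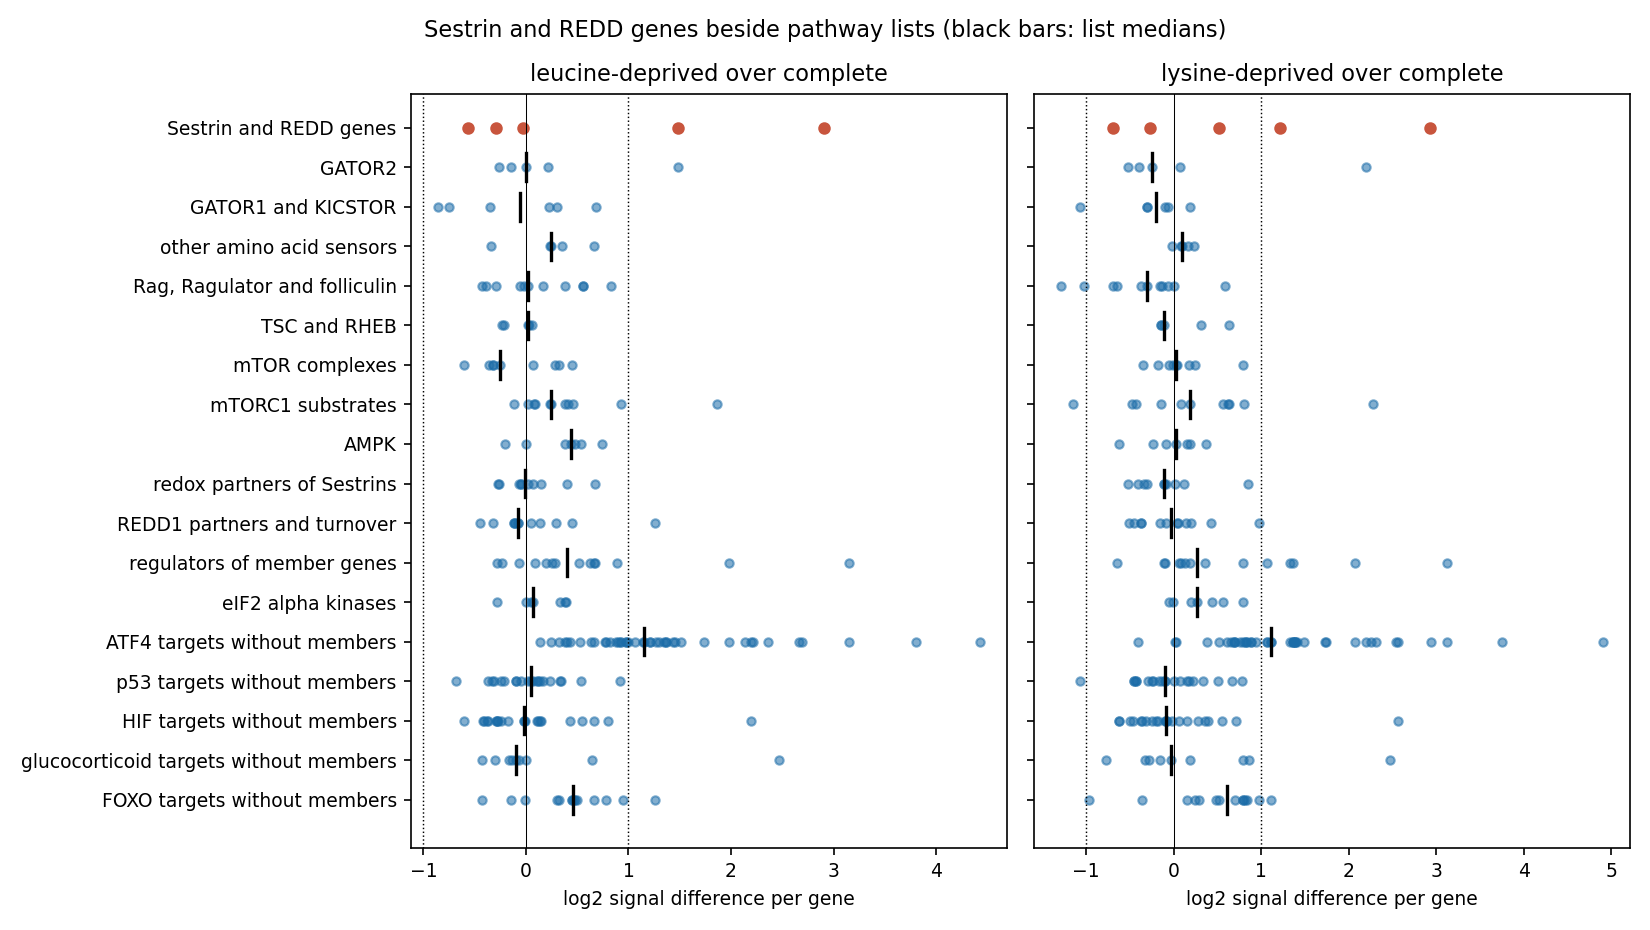
Log2 signal difference over complete medium of each gene (points), for the 5 Sestrin and REDD genes (red, top row) and for the pathway lists (blue, black bar at the median), leucine-deprived on the left and lysine-deprived on the right. Dotted lines mark 2-fold. The ATF4 targets lay at medians of 1.15 and 1.12, and the lists of the mTORC1 machinery between -0.30 and 0.44.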

How the data were processed

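RNA of 3 khES3 cultures, 1 per medium, was measured on 1 array each. The deposited values are intensity per probe set, which the authors made with MAS5, per the submitters' processing notes (no version or settings stated there). The mean after trimming 2% at either end was 500.1 on each array, so a common scaling removes differences in total RNA. Of 54675 probe sets 62 are controls; 41091 of the others name 1 gene in the platform annotation, 1801 several and 11721 are not named here. Values were floored, taken to log2, filtered and reduced to 1 probe set per gene as the results describe. With 1 array per group no test was possible, and the number of arrays limits the precision. A difference counted as 2-fold if the higher array was above its floor. The 5 genes and the 21 lists (238 of 274 genes measured) were chosen with earlier results of these data known. Genes were named by rule: in each list up to 4 past 2-fold, or otherwise the 2 with the largest mean absolute difference; other names (NANOG, SOX2, COL1A1, COL1A2, DCN, SOX17, CHAC1, NES, OTX2, ATF4, FOXO3, HIF1A and NR3C1) were added after the values were seen. Marker lists are given as sums, counts and examples. Calculations were tested on simulated arrays. Tools were limma 3.58.1 in R 4.3.3 for cyclic loess, and scipy 1.17.1, pandas 2.3.3 and numpy 2.4.6 under Python 3.11.15.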

Additional observations from a re-analysis of the deposited data

How the results depend on the processing

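No paired analysis was possible because each medium has 1 array, and for the same reason no replicate could be left out. The alternatives were 3 other scalings, 3 other floors, 2 other level filters, 2 other choices of probe set and thresholds of 1.5- and 3-fold. Of the 15 differences of the 5 genes, 14 kept their sign under each alternative that gave a value. The near-zero DDIT4 difference between deprivations ran from -0.06 to 0.09. Many of these alternatives were no check on the 5 genes. Floors at the 20th and 60th percentile, both level filters and leaving out probe sets with an s, x or a suffix returned their reported values unchanged. Averaging probe sets could not change SESN1, DDIT4 or DDIT4L, each with 1 kept probe set. The sign was thus checked mainly by the other scalings. DDIT4L had no value with the level filter at the 70th percentile. DDIT4 ranged from 2.78 to 2.92 after leucine and from 2.68 to 2.96 after lysine removal, and SESN2 from 1.35 to 1.78 and from 0.97 to 1.44. With median centring, which put the median of all genes at -0.12 after leucine and -0.24 after lysine removal, SESN2 was 0.97 after lysine removal and 1 of the 5 genes passed 2-fold; SESN2 lay 1.21 above that median, as with the deposited scaling. At 3-fold 1 gene passed after leucine and 1 after lysine removal, and at 1.5-fold 2 after leucine removal, 3 after lysine removal, where DDIT4L (1.61-fold lower) joined DDIT4 and SESN2, and 1, SESN3, between deprivations. Counts over all genes were 828 (leucine-deprived over complete), 1226 (lysine-deprived over complete) and 1093 (leucine-deprived over lysine-deprived) as reported. In that order they were 232, 437 and 290 once the floor was set to the 60th percentile, 136, 278 and 145 with the level filter at the 70th percentile, 2418, 3320 and 2767 at 1.5-fold and 162, 290 and 269 at 3-fold. Without a level filter the last was 1652. Dim probe sets, among them 5 of 7 of SESN3, limit what can be read.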
